A study of Mus musculus with 6 samples.

Results

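The genes described here encode respiratory complex I and the proteins that assemble it. They were taken as every row of the mouse platelet FPKM table (fragments scaled to the exon length of the gene and to the size of the library) whose symbol begins with Ndufa, Ndufab, Ndufb, Ndufc, Ndufs, Ndufv or Ndufaf followed by a number. Symbols ending in -ps were left out. This gave 47 of 14975 genes, of which 39 carry subunit symbols and 8 are assembly factors, Ndufaf1 to Ndufaf8. Among the 39 are Ndufa4 and Ndufa4l2, now known as a subunit of complex IV and its paralog, and Ndufb4c, a processed copy of Ndufb4. Each gene was compared between 3 platelet libraries labelled WT and 3 labelled AML, all on the C57BL/6 background and from peripheral blood. WT libraries came from irradiated mice given normal bone marrow and are called control 1 to 3. AML libraries came from sub-lethally irradiated mice that had received MLL-AF9 leukemia cells 1 week earlier, before overt leukemia, and are called pre-AML 1 to 3. Mice of the study were females of 8 to 12 weeks, with CD45.1 or C57BL/6 recipients. The leukemia cells had been made by retroviral transfer of the MLL-AF9 fusion with GFP into stem and progenitor cells, and the labels do not say whether the platelets stem from host or donor megakaryocytes. The design text speaks of 2 replicates a group and of 3 to 4 mice pooled per sample, whereas 3 libraries a group were analysed and the methods speak of independent mice. P-values measure the spread between these libraries only.

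Complex I is the entry point of electrons from NADH into the mitochondrial respiratory chain. Its matrix arm oxidises NADH and passes the electrons through a chain of iron-sulfur clusters to ubiquinone, while its membrane arm pumps protons. The core subunits catalyse these steps, the accessory subunits surround and stabilise the core, and assembly factors help to build the complex without staying in it. The membrane-arm core subunits are encoded in mitochondrial DNA and carry other symbols, so all core subunits described here belong to the matrix arm. Platelets have no nucleus and receive their mitochondria and most of their RNA from megakaryocytes.

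What the genes share at their starts was read from RefSeq promoters (GRCm38.p6, 250 bases before to 50 after the start), which were found for 40 of the 47. The letters AAGATGGC, the motif of YY1, a factor bound near the start of many housekeeping genes, stood on either strand in 8 of the 40 (20%), against 5.05% of 3548 tested genes with a promoter and 2.88% of 27025 genes. In all 8 they lay on the gene's own strand, 11 to 39 bases after the start. The sites are shown because this was the motif whose share in these genes stood farthest above that of the tested genes. Each run is 30 bases long with the motif in capitals.
Ndufa3, chr7:3617384-3617413, plus strand: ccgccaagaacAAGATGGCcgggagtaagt
Ndufa9, chr6:126849097-126849126, minus strand: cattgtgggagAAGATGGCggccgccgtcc
Ndufaf8, chr11:120098933-120098962, plus strand: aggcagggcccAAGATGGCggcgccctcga
Ndufb8, chr19:44555393-44555422, minus strand: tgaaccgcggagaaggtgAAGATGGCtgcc
Ndufc1, chr3:51408915-51408944, minus strand: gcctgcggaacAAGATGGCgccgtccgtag
Ndufs4, chr13:114388045-114388074, minus strand: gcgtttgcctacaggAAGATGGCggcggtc
Ndufs6, chr13:73328433-73328462, minus strand: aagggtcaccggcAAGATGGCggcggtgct
Ndufs7, chr10:80249462-80249491, plus strand: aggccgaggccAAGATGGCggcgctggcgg
The 8 genes lay at very different levels: their control levels ran from 2.3 FPKM (Ndufa9) to 632.2 FPKM (Ndufa3), and their log2 fold changes between the groups, described further on, were above 0 in 4 and below 0 in 4.

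Of the other motifs searched on both strands, GGGCGG (the GC box) stood in 52.5% of the 40 promoters and 64.3% of those of tested genes. GCGCATGCG (NRF1) stood in 10% against 3.47%, CCGGAAGT (ETS family) in 2.5% against 8.91%, and TCAAGGTCA (ERR family) in none against 0.282%. The 3 promoters below belong to Ndufa1, which had the highest level, and to the catalytic partners Ndufv1 and Ndufv2, which lay on opposite sides of 0 in the comparison. Capitals mark the GC box in either orientation.
Ndufa1, chrX:37191189-37191488, minus strand: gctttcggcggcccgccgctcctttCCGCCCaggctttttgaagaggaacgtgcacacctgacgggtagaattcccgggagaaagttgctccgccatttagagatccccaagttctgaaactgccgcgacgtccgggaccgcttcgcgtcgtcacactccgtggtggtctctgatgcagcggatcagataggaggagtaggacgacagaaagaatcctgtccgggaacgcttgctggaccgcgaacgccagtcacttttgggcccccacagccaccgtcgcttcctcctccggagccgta
Ndufv1, chr19:4012706-4013005, minus strand: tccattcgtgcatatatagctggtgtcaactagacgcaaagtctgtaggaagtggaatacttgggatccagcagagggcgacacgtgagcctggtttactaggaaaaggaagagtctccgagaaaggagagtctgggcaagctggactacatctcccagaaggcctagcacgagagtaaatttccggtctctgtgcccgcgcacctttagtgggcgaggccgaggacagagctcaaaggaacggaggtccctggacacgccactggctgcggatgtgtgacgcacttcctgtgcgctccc
Ndufv2, chr17:66101510-66101809, minus strand: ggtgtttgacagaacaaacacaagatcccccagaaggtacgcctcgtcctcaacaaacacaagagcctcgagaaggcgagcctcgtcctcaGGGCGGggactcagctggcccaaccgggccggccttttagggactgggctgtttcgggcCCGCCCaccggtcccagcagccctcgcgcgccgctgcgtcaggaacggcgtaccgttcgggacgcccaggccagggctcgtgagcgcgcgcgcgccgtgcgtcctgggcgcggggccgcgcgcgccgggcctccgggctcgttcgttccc
The Ndufv1 window held none of the 5 motifs and had a GC content of 55.7%, that of Ndufa1 60.7% and that of Ndufv2 70.7%.

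The reads recovered from the FPKM values numbered 11935672 to 17778070 per library. Pre-AML 3 stood apart: its Spearman correlation with any other library over the tested genes was at most 0.880, and the others reached 0.973. The summed level of 9 B cell markers was 277.3 FPKM in pre-AML 3 and 24.9 FPKM in pre-AML 2. It was 1.21 FPKM in pre-AML 1 and 2.01 to 2.4 FPKM in the controls. All 12 monocyte and macrophage markers were highest in pre-AML 3 (3490 FPKM in sum against 2340 to 2616). T and NK cell markers summed to 35.6, 34 and 43.7 FPKM in pre-AML 1, 2 and 3 and to 19.1 to 28.6 FPKM in the controls. Sums of the erythroid and neutrophil lists overlapped between the groups. The 14 platelet markers summed to 92237 to 116000 FPKM in the other libraries and to 63084 FPKM in pre-AML 3. The part of these cells in the values below was not tested, and values are therefore also given without pre-AML 3. Those values still hold the marker levels of pre-AML 1 and 2. In such bulk RNA, fewer platelets and less RNA per platelet cannot be told apart. Scale enters the platelet sum as well: over all genes the FPKM summed to 376148 in pre-AML 3 and to 508605 to 541784 in the others. The divisor of pre-AML 3 was 1.31 times its reads on listed genes.

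Levels of the 39 subunit genes spanned a very wide range in control platelets. Ndufa1, a small accessory subunit of the membrane arm, had 1927 ± 161.2 FPKM (SD, n = 3), while the median subunit gene had 6.92 FPKM. Of the 39 genes, 6 had at least 100 FPKM, 10 had 10 to 100, 16 had 1 to 10 and 7 lay below 1 FPKM. Ndufa1, Ndufa4, Ndufa3 and Ndufa2 together made up 85.3% of the summed control level. The order hardly moved between libraries: Spearman's correlation over the 39 genes was 0.975 to 0.993 for the pairs of libraries and 0.987 between the group means. The points of these correlations are genes, so they describe the order and are no test.

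The highest level belonged to Ndufa1, with 2105, 1791 and 1886 FPKM in controls 1, 2 and 3 and 1826, 1916 and 1163 FPKM in pre-AML 1, 2 and 3. Ndufa3, another membrane-arm accessory subunit, measured 685.6, 606.4 and 604.6 FPKM in the controls and 651.0, 752.1 and 543.8 FPKM in the pre-AML libraries. In both genes the groups overlapped and pre-AML 3 was the lowest library, in FPKM as deposited. Ndufa4 ranked between them and Ndufa3 did not exceed Ndufa2 beyond their spread (632.2 ± 46.2 and 622.8 ± 25.6 FPKM in controls, SD, n = 3).

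**Figure D1:**
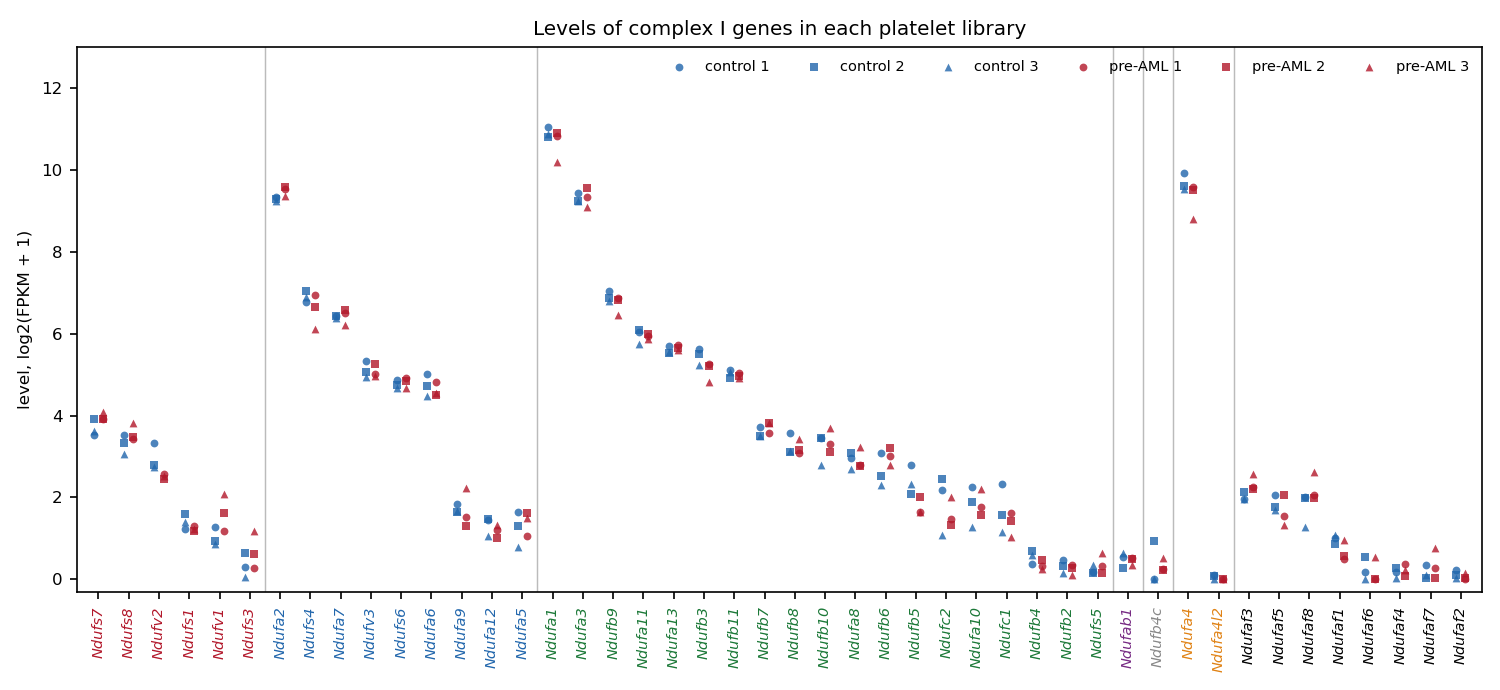
Level of 46 of the genes, as log2(FPKM + 1), in the 3 control (blue) and 3 pre-AML (red) libraries, ordered by control mean within classes separated by grey lines (core, matrix-arm accessory, membrane-arm accessory, Ndufab1, Ndufb4c, Ndufa4 with Ndufa4l2, assembly factors). Assembly factors lie low, core subunits reach no more than 12.1 FPKM in control mean, and the steep order from Ndufa1 downwards is alike in both groups.

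The 7 catalytic core subunits had a median near the middle of this order, and none was among the abundant genes. Their control means ran from 0.276 FPKM (Ndufs3) to 12.1 FPKM (Ndufs7) with a median of 6.81 FPKM. The medians were 26.1 FPKM for the 9 matrix-arm and 8.56 FPKM for the 19 membrane-arm accessory genes. Ndufv1, at 1.06 FPKM, was the lowest tested subunit gene in controls. The subunits below 1 FPKM in controls were Ndufs3, Ndufs5, Ndufb2, Ndufb4, Ndufab1, Ndufb4c and Ndufa4l2. Ndufab1, the mitochondrial acyl carrier protein that sits in both arms, measured 0.408 ± 0.172 FPKM in controls and 0.366 ± 0.0858 FPKM in pre-AML platelets (SD, n = 3), on 21 to 45 reads a library. Ndufa4l2 had 1 read in control 1, 1 in control 2 and 0 in the other 4 libraries, and a count of 0 still allows up to 3 reads.

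Gene length bears on this order, since the deposited FPKM appear to have been divided by the union of all annotated exons. This divisor was inferred from values that came out as whole reads with that length. For 7 members, Ndufb5 among them, the reads were not whole in every library, so their divisor is less certain. For Ndufb7 that union is 4522 bases against 623 for its principal transcript, and for Ndufb5 it is 4995 against 1079. Divided by principal transcript length, an alternative chosen after seeing the data, Ndufb7 had a control level of 79.6 in place of 11 FPKM and Ndufb5 20.5 in place of 4.43 FPKM. The order over the 38 subunit genes with such a transcript still correlated with the deposited one at a Spearman's rho of 0.98. The deposited level and the exon union length had a Spearman's rho of -0.26 across the 39 genes, a description in which the length enters both values.

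The comparison of pre-AML with control platelets asked whether RNA of complex I genes differed before overt leukemia. No complex I gene rose or fell past the threshold. With a mean of at least 1 FPKM, 35 of the 47 were tested (32 subunit genes and 3 assembly factors), and none had an adjusted p under 0.05 by limma-trend with Benjamini-Hochberg adjustment over all 4412 tested genes. Across all genes 0.0227% were called higher and 0% lower. The smallest adjusted p of a member was 0.522. At an unadjusted p under 0.05, 1 member was higher (Ndufv1; 2.56% of all tested genes) and 2 were lower (Ndufb5 and Ndufv2; 6.53% of all tested genes). By limma-voom on the recovered reads the adjusted count was again 0, with the same 3 genes at an unadjusted p under 0.05.

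Subunit genes were spread evenly around 0. In 15 of the 32 the log2 fold change was above 0 and in 17 it was below, with a median of -0.03 and quartiles at -0.21 and 0.09. Over all tested genes the median was -0.06, with 41.5% above 0. Fold changes are pre-AML over control on the log2(FPKM + 1) scale, which understates the change of low genes. Libraries of the groups did not overlap for 3 members that were higher (Ndufa2, Ndufs7 and Ndufaf3; 6.14% of all tested genes) and 2 that were lower (Ndufb5 and Ndufv2; 12.8% of all tested genes). The 95% interval lay within 1 log2 unit of 0 for 30 of the 35 members, a share of 85.7% beside 88.6% of all tested genes, and its median half-width was 0.40. The direction of the whole set moved with scaling: 17 of 35 members were above 0 as deposited, but 23 (65.7%) after the libraries were rescaled to equal totals, when 62.4% of all tested genes were above 0 and their median had moved by 0.14.

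**Figure D2:**
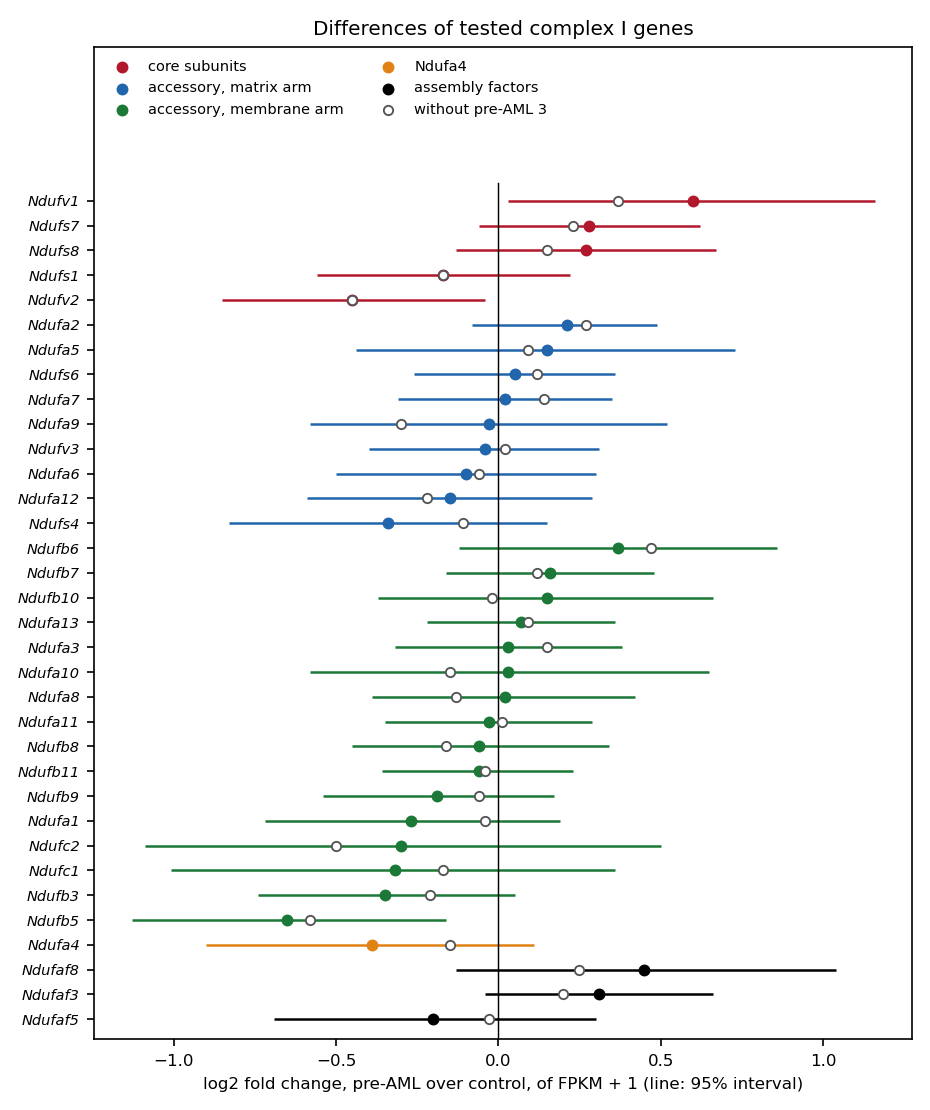
Log2 fold change of FPKM + 1, pre-AML over control, of 34 tested genes by class (filled points) with 95% intervals from limma-trend, and the same without pre-AML 3 (open points). Most intervals cross 0, and those of Ndufv1, Ndufv2 and Ndufb5 do not, before adjustment.

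At the NADH-oxidising tip of the matrix arm, Ndufv1 and Ndufv2 lay on opposite sides of 0, and neither passed the threshold. Ndufv1 carries the flavin that accepts electrons from NADH. It measured 1.42, 0.917 and 0.83 FPKM in controls 1, 2 and 3 and 1.28, 2.06 and 3.21 FPKM in pre-AML 1, 2 and 3. Pre-AML 2 and 3 were above every control, but pre-AML 1 was below control 1, so the groups overlapped. The log2 fold change was 0.60 (95% interval 0.03 to 1.16, adjusted p = 0.522 by limma-trend with Benjamini-Hochberg adjustment) and 0.37 without pre-AML 3. These values rested on 26 to 44 reads in controls and 45 to 197 in pre-AML libraries.

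Ndufv2, the iron-sulfur partner of Ndufv1, had 9.05, 5.96 and 5.75 FPKM in the controls and 4.94, 4.51 and 4.71 FPKM in the pre-AML libraries. All pre-AML libraries were below all controls, with control 1 well above the rest. The log2 fold change was -0.45 (95% interval -0.85 to -0.04, adjusted p = 0.522) and -0.45 without pre-AML 3, but -0.26 without control 1. The log2 ratio of Ndufv1 to Ndufv2 within a library, which does not depend on scaling, was -2.67, -2.70 and -2.79 in the controls and -1.94, -1.13 and -0.56 in the pre-AML libraries. It was higher in every pre-AML library than in any control, by 1.51 on average, with pre-AML 3 highest. However, this pair was chosen after its values were seen and was not tested. Transcript GC content is 56.2% for Ndufv1 and 44.2% for Ndufv2, and the ratio was not adjusted for it.

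The core subunits next to the quinone site carry iron-sulfur clusters. Ndufs7, which holds the last cluster before ubiquinone, had 10.6, 14.2 and 11.4 FPKM in the controls and 14.2, 14.2 and 15.9 FPKM in the pre-AML libraries. The groups were separated only narrowly, since control 2 and the lower pre-AML libraries nearly coincided. Its log2 fold change was 0.28 (95% interval -0.06 to 0.62, adjusted p = 0.526). Ndufs8, the neighbouring iron-sulfur subunit, had 10.6, 8.97 and 7.29 FPKM in the controls and 9.72, 10.1 and 13.1 FPKM in the pre-AML libraries. The groups overlapped and pre-AML 3 was highest, with a log2 fold change of 0.27 and of 0.15 without that library.

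Ndufs1, the large iron-sulfur subunit of the NADH module, measured 1.33, 2 and 1.66 FPKM in the controls and 1.45, 1.25 and 1.36 FPKM in the pre-AML libraries. The groups overlapped (log2 fold change -0.17, 95% interval -0.56 to 0.22). Ndufs3, a subunit of the quinone module, was below the test's minimum at 0.235, 0.555 and 0.0386 FPKM in the controls and 0.207, 0.548 and 1.28 FPKM in the pre-AML libraries, on 1 to 65 reads, and pre-AML 3 alone exceeded every control. Over the 6 tested core subunits, 4 were above 0 and 2 below, with a median log2 fold change of 0.15. Without pre-AML 3, 3 were above 0 and 3 below, and the median was -0.00.

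The accessory subunits of the matrix arm, all 9 tested, had a median log2 fold change of -0.03 with 4 above 0 and 5 below, and every 95% interval lay within 1 log2 unit of 0. Ndufa2, a small thioredoxin-fold subunit, was the one whose groups did not overlap and is named for that reason, after its values were seen. It had 650.1, 619.1 and 599.3 FPKM in the controls and 734.8, 770.6 and 653.9 FPKM in the pre-AML libraries, with pre-AML 3 just above control 1. The log2 fold change was 0.21 (95% interval -0.08 to 0.49, adjusted p = 0.552) and 0.27 without pre-AML 3. With all libraries as deposited its unadjusted p by limma-trend was not under 0.05. It was under 0.05 with equal totals, with libraries scaled to their own reads, with quantile normalization and without pre-AML 3. No adjusted p of Ndufa2 was under 0.05 in these.

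Among the matrix-arm accessory subunits, Ndufa5 and Ndufa12 had the lowest control levels. Ndufa5, a subunit of the quinone module, had 2.15, 1.45 and 0.733 FPKM in the controls and 1.09, 2.06 and 1.83 FPKM in the pre-AML libraries. Ndufa12, a late-joining subunit related to the assembly factor Ndufaf2, had 1.74, 1.77 and 1.07 FPKM in the controls and 1.29, 1.01 and 1.5 FPKM in the pre-AML libraries. In both genes the groups overlapped, and control 3 was the lowest control. The other accessory members of the matrix arm, Ndufa6, Ndufa7, Ndufa9, Ndufs4, Ndufs6 and Ndufv3, had log2 fold changes between -0.34 (Ndufs4) and 0.05 (Ndufs6). Without pre-AML 3 that of Ndufs4 was -0.11.

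Of the 19 accessory genes of the membrane arm, 16 were tested, with 7 above 0, 9 below and a median log2 fold change of -0.04. Ndufb5, a subunit of this arm, had the most negative log2 fold change of the 35 tested members, at 5.98, 3.27 and 4.03 FPKM in the controls and 2.12, 3.05 and 2.1 FPKM in the pre-AML libraries. Every pre-AML library was below every control, but pre-AML 2 was close to control 2. The log2 fold change was -0.65 (95% interval -1.13 to -0.16, adjusted p = 0.522) and -0.58 without pre-AML 3. Its exons overlap those of Mrpl47, a mitochondrial ribosomal protein gene, over 12.3% of their length, and the library kit does not mark strand.

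Ndufb3, another membrane-arm subunit, had 48, 44.2 and 36.5 FPKM in the controls and 37.4, 36.1 and 27.2 FPKM in the pre-AML libraries. Control 3 lay below pre-AML 1, so the groups overlapped. The log2 fold change was -0.35 (95% interval -0.74 to 0.05, adjusted p = 0.522) and -0.21 without pre-AML 3. For Ndufa1 the log2 fold change was -0.27 (95% interval -0.72 to 0.19) and -0.04 without pre-AML 3, the only pre-AML library below the controls. Ndufa3 was at 0.03, and the other tested membrane-arm members lay between -0.32 (Ndufc1) and 0.37 (Ndufb6).

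Ndufa4, counted with complex I by its symbol but placed in complex IV, had 963.0, 774.1 and 741.4 FPKM in the controls and 761.2, 721.7 and 441.9 FPKM in the pre-AML libraries. The groups overlapped, control 1 was highest and pre-AML 3 lowest. Its log2 fold change was -0.39 (95% interval -0.90 to 0.11, adjusted p = 0.532) and -0.15 without pre-AML 3.

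The assembly factors were scarce, with a summed level of 7.78 to 10.9 FPKM in controls and 9.76 to 13.9 FPKM in pre-AML libraries, and only Ndufaf3, Ndufaf5 and Ndufaf8 reached the level for testing. Ndufaf3, which helps to build the quinone module together with Ndufaf4, had 2.91, 3.41 and 2.92 FPKM in the controls and 3.77, 3.58 and 4.94 FPKM in the pre-AML libraries. Every pre-AML library was above every control, pre-AML 3 most. The log2 fold change was 0.31 (95% interval -0.04 to 0.66, adjusted p = 0.522) and 0.20 without pre-AML 3.

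Ndufaf5 hydroxylates Ndufs7 and works with Ndufaf8. Ndufaf8 measured 3.06, 2.98 and 1.41 FPKM in the controls and 3.15, 2.94 and 5.14 FPKM in the pre-AML libraries. Ndufaf5 measured 3.19, 2.38 and 2.21 FPKM in the controls and 1.93, 3.15 and 1.49 FPKM in the pre-AML libraries. Both overlapped between groups, with pre-AML 3 the highest library for Ndufaf8 and the lowest for Ndufaf5. The log2 fold changes were 0.45 for Ndufaf8 (95% interval -0.13 to 1.04, adjusted p = 0.532) and -0.20 for Ndufaf5 (95% interval -0.69 to 0.30), and without pre-AML 3 they were 0.25 and -0.03. The median over the 3 tested factors was 0.31, and it was 0.20 without pre-AML 3, 0.21 without control 3 and 0.14 with the GC and length trends of each library removed.

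The other 5 assembly factors were below the minimum. Ndufaf1, part of the complex that assembles the membrane arm, came closest, with 1.02, 0.805 and 1.12 FPKM in the controls and 0.401, 0.486 and 0.942 FPKM in the pre-AML libraries. Pre-AML 1 and 2 were below all controls and pre-AML 3 was not, on 17 to 20 reads in controls and 8 to 33 in pre-AML libraries. Ndufaf7, a methyltransferase, had 0.268, 0.0203 and 0.072 FPKM in the controls and 0.215, 0.0189 and 0.697 FPKM in the pre-AML libraries.

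Ndufaf4 had 0.131, 0.219 and 0.0215 FPKM in the controls and 0.289, 0.051 and 0.165 FPKM in the pre-AML libraries. Ndufaf6, an early factor, had 0.138, 0.46 and 0 FPKM in the controls and 0, 0 and 0.451 FPKM in the pre-AML libraries. Ndufaf2, a late factor, had 0.172, 0.0716 and 0.0282 FPKM in the controls and 0, 0.0223 and 0.115 FPKM in the pre-AML libraries, and 65.6% of its exons overlap another gene. Groups overlapped in all of these, and no difference was detectable at read counts of 15 or fewer per library.

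Of 12 assembly genes without the Nduf prefix, 11 were in the table, with control means from 0.00573 to 212.4 FPKM and a median of 0.118 FPKM. Only 3 were tested, none past the threshold and all below 0. Dmac1, needed for the distal membrane arm, had 243.2, 207.8 and 186.3 FPKM in the controls and 201.8, 188.6 and 118.2 FPKM in the pre-AML libraries (log2 fold change -0.35, adjusted p = 0.552 by limma-trend, and -0.11 without pre-AML 3). Lyrm2 was at -0.22 and Foxred1 at -0.06, with overlapping groups in each.

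Differences among the members ran with base composition. Across the 35 tested members the log2 fold change and transcript GC content had a Spearman's rho of 0.71, a description over genes of the same 6 libraries, beside 0.58 across 4397 tested genes. Of the 21 members with a GC content of at least 50%, 15 were above 0 (median 0.03), and of the 14 below it, 2 were (median -0.28). Over all tested genes the medians in these classes were 0.06 and -0.19. Ndufv1 has a GC content of 56.2% and Ndufv2 of 44.2%, Ndufs7 of 58.8% and Ndufa4 of 43.0%. With trends on GC and length removed from every library, the log2 fold change was 0.44 for Ndufv1, -0.25 for Ndufv2 and -0.58 for Ndufb5. It was 0.05 for Ndufs7, 0.08 for Ndufs8, 0.14 for Ndufaf3 and -0.17 for Ndufa4. The rho over members was 0.28, and 12 of 35 members were above 0. Without pre-AML 3 the rho in the deposited values was 0.59. GC content moved with the result, and its part in it was not tested further.

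**Figure D3:**
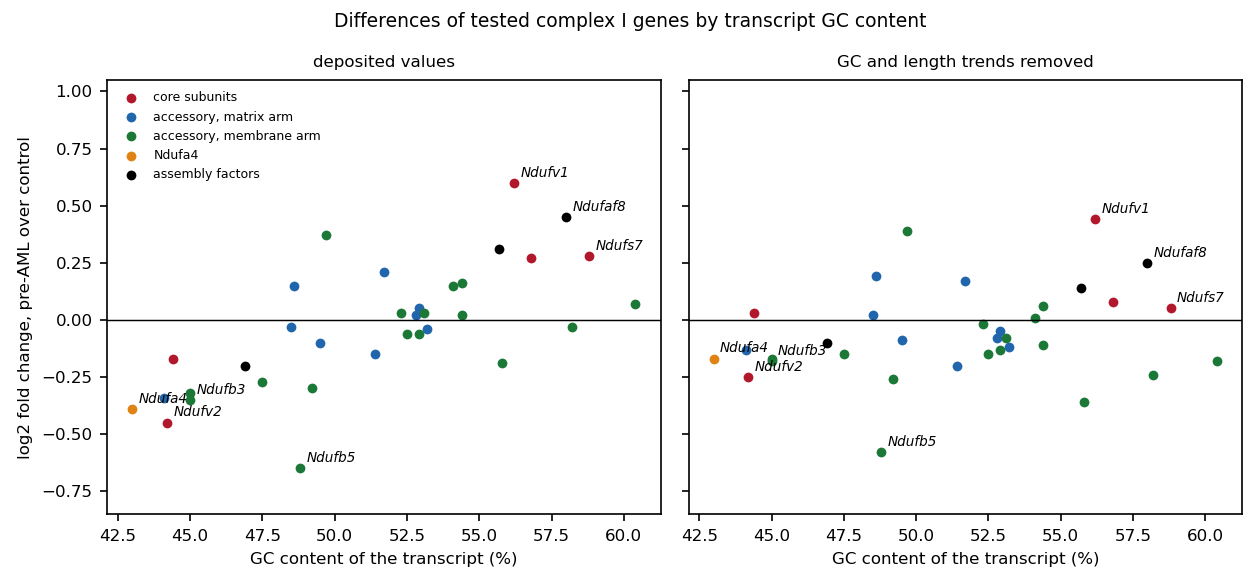
Log2 fold change, pre-AML over control, of 34 tested genes against the GC content of their transcripts in percent, from the deposited values (left) and with GC and length trends removed (right). On the left low-GC genes such as Ndufa4 and Ndufv2 lie below 0 and high-GC genes such as Ndufv1 and Ndufaf8 above; the slope is flatter on the right.

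Complex I RNA was set against the nuclear-encoded subunits of the other complexes within each library. The value was the log2 ratio of mean FPKM over 38 genes with subunit symbols to 40 genes of complexes II, III, IV and ATP synthase. Ndufa4 was left out of the 38, while Ndufa4l2 and Ndufb4c, both below 1 FPKM in controls, stayed in. The ratio was -0.67, -0.64 and -0.53 in the controls and -0.65, -0.55 and -0.61 in the pre-AML libraries. The groups overlapped fully, and the mean difference was 0.01 with a control SD of 0.07. Against complex IV alone, with Ndufa4 counted there, the groups differed by 0.05 in their means with a control SD of 0.07, and by 0.16 in the mean of log2(FPKM + 1), where pre-AML 3 was at -3.36 and the other libraries at -3.88 to -3.76. Against complex II they differed by -0.13, with pre-AML 3 at 3.02 and the others at 3.50 to 3.68, and against ATP synthase the ratio was 1.40 ± 0.10 in controls and 1.39 ± 0.14 in pre-AML platelets (SD, n = 3). Against complex III it was 0.67, 0.61 and 0.67 in the controls and 0.46, 0.48 and 0.27 in the pre-AML libraries. There every pre-AML library was below every control, by 0.25 in the mean of FPKM but by 0.08 in the mean of log2(FPKM + 1), which was also added after seeing the data. These means weigh the few abundant genes such as Ndufa1 most.

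**Figure D4:**
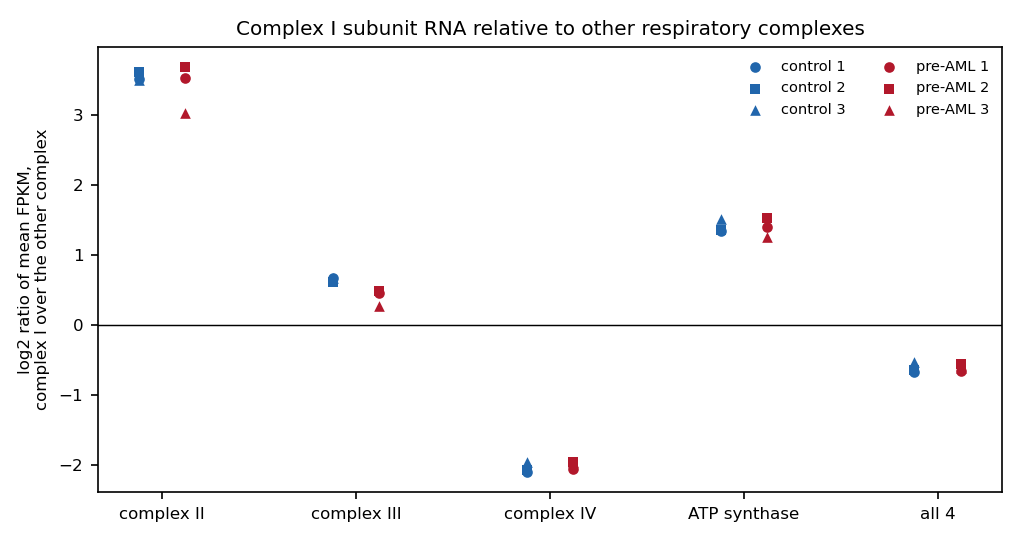
Log2 ratio, within each library, of the mean FPKM of 38 genes with complex I subunit symbols to that of complexes II, III, IV and ATP synthase, apart and together, in 3 control (blue) and 3 pre-AML (red) libraries. The ratio to all 4 overlaps between groups, from -0.67 to -0.53, and the ratio to complex III is lower in the pre-AML libraries.

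Enzymes that share NADH or the quinone pool with complex I showed no call. Of 10 listed, 6 were tested, 4 above 0 and 2 below, with log2 fold changes from -0.17 to 0.19. Gpd2, which passes electrons from glycerol phosphate to quinone, had 4.45, 5.25 and 5.43 FPKM in the controls and 4.26, 4.58 and 4.21 FPKM in the pre-AML libraries. Sdhc, the membrane anchor of complex II, had 2.62, 2.01 and 2.28 FPKM in the controls and 2.29, 2.88 and 3.13 FPKM in the pre-AML libraries. Sdha, the flavoprotein of complex II, differed by 0.09. Groups overlapped in all 3.

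Some members share reads with copies or neighbours. In 15 of the 47, over 10% of the 50-base stretches of the principal transcript recur in another gene or over 10% of the exon bases overlap another gene, so their counts are uncertain. Ndufs5, an accessory subunit with an estimated 1 to 11 reads a library, not whole in every one, shares 31.1% with the processed pseudogene BC002163. The row Ndufs5-ps, which the rule leaves out, had 10.8 ± 0.775 FPKM in controls and 9.55 ± 1.5 FPKM in pre-AML platelets (SD, n = 3), against 0.176 ± 0.0852 and 0.303 ± 0.231 FPKM for Ndufs5 itself. Ndufb4 shares 37.0% with its copies such as Ndufb4c, Ndufs3 39.7% with Gm12251 and others, and Ndufb6 34.1% with Smim27.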

How the data were processed

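Platelets depleted of CD45 and Ter119 positive cells were profiled by polyA RNA-seq (SMART-Seq2 cDNA, Nextera XT), a protocol that does not mark strand. The authors mapped reads to mm10 with STAR and used DESeq2, and deposited a table of FPKM values for 14975 genes and 6 libraries; the counting program and annotation are not given in the sources used here. With exon unions of GENCODE M21 as lengths, 81.7 to 82.6% of FPKM values came out as whole reads (within 0.02 reads, values under 1000 reads), for 12410 genes in all 6 libraries, so the recovered reads are estimates. The FPKM of pre-AML 3 were divided by a library size 1.31 times its reads on listed genes, and of the others by 0.983 to 1.01 times.

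FPKM are not counts, so limma-trend (limma 3.58.1, R 4.3.3) was fitted two-sided and with no covariate to log2(FPKM + 1) of the 4412 genes whose mean reached 1 FPKM. P-values were adjusted by Benjamini-Hochberg, and calls were made under 0.05. Levels, ratios and list medians were described without a test (Python 3.11.15, pandas 2.3.3, scipy 1.17.1). Alternatives were another pseudocount, other filters and scalings, limma-voom on recovered reads, GC and length correction, a replicate block and leaving out each library. Named genes were the core subunits, the assembly factors, the 4 members with the smallest p in each direction, the 3 highest members and 3 lowest tested subunits in controls, Ndufa4 and Ndufa4l2, and 3 genes of each related list. A single member is counted in the summaries but not reported here by itself or drawn. Members and lists were chosen with earlier results of these data known. Positions are those of GRCm38 (mm10).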

Additional observations from a re-analysis of the deposited data

How the results depend on the processing

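No complex I gene had an adjusted p under 0.05 in any of the 15 alternatives. The numbers at an unadjusted p under 0.05, 1 higher and 2 lower as deposited, became 0 and 0 with a minimum of 5 FPKM, 2 and 1 with libraries rescaled to equal totals or scaled to their own reads, 2 and 4 with quantile normalization, and 0 and 1 with GC and length trends removed. Leaving out each library gave 0 to 2 higher and 0 to 4 lower. Without control 1, 2 were higher and 0 lower, without control 3, 0 and 4, without pre-AML 2, 0 and 1, and without pre-AML 3 1 was lower. The replicate block gave 0 higher. The genes behind these counts changed too. Neither Ndufv1 nor Ndufv2 was among them under either rescaling (Ndufa2, Ndufb5 and Ndufb6), with trends removed (Ndufb5) or without pre-AML 3 (Ndufa2 and Ndufb5). Both were among them with the other pseudocount, no filter, quantile normalization and limma-voom. Same-numbered samples did not deviate together (r = -0.04, -0.12 and -0.17 for numbers 1, 2 and 3). These deviations were taken from group means of 3 libraries, and pre-AML 3 stood apart from the others. The check therefore cannot exclude that the numbers pair the samples. The subunit median moved from -0.03 to 0.13 with equal totals, where the median of all tested genes moved by 0.14, and lay between -0.13 and 0.04 with a library left out. The assembly factor median moved from 0.31 to -0.00 with no filter, which lets in all 8, and no assembly factor passed the minimum of 5 FPKM. Among 15 named tested genes 12 kept their sign in every alternative. With GC and length trends removed, Ndufa3 was at -0.08 and Ndufs1 at 0.03. Ndufa3 was at 0.20 with equal totals and at 0.16 with libraries scaled to their own reads. With a library left out, Ndufa3 ranged from -0.08 to 0.15 and Ndufa5 from -0.08 to 0.35. The cause of these changes was not tested. The level order of the groups correlated at 0.987, at no less than 0.975 between single libraries and at 0.992 per principal transcript length. Ndufv1 had a larger log2 fold change than Ndufb5 in size with a pseudocount of 0.1 (0.93 and -0.82) and by limma-voom (1.09 and -0.85). With libraries of this depth, 3 reads on a gene of 1 kb are 0.129 to 0.256 FPKM, so differences of the 12 untested genes are limited by counting.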
